A study of Mus musculus with 12 samples.

Results

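Kruppel-like factors (KLFs) are zinc finger transcription factors that bind GC-rich and CACCC sequences in promoters. Members differ in the proteins they recruit, so that some mainly activate genes, others repress them through the corepressor CtBP, and others repress them through the corepressor Sin3a. Several are early-response or hormone-induced genes, and Klf10 and Klf15 are known as genes under control of the circadian clock. BMAL1 is a core activator of that clock and acts as a dimer with CLOCK, whose canonical site is the E-box CACGTG. To examine where BMAL1 was found near KLF genes in control and senescent cells, the peaks of 6 BMAL1-ChIP-seq libraries were assigned to 10 genes: Klf2, Klf3, Klf4, Klf5, Klf6, Klf7, Klf10, Klf11, Klf13 and Klf15. A peak belonged to a gene if the protein-coding start site nearest to its centre was a start site of that gene (GENCODE M21, GRCm38/mm10). This gave 138 KLF peaks of 35822 peaks in all. Peaks of different libraries that overlapped by at least 1 bp were merged, which gave 57 KLF regions of 16818 regions.

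All libraries came from primary MAFs, fibroblasts grown from ear tissue of adult female C57BL6/J mice, which were cultured at low oxygen. Control cells had a sham irradiation, senescent cells received 20 Gy of X-rays, and no genetic change is named for either group. After irradiation the senescent cells were kept in culture for some weeks. The time in culture of the control cells is not given, so irradiation and time in culture cannot be told apart. All cells, controls included, were given 100 nM dexamethasone for 2 hours to synchronize their clocks and were collected 12 hours later. Dexamethasone is a glucocorticoid, and some KLF genes are themselves glucocorticoid-induced, so both groups carry that treatment. Each group had 3 BMAL1-ChIP-seq libraries, each with its own peak list. The control lists held 2794, 3349 and 10601 peaks, and the senescent lists held 4220, 9805 and 5053 peaks. The lists hold no reads, so depth is unknown, and a peak that was not called does not show that BMAL1 was absent. Each library is a pool of cells, in which fewer bound cells and weaker binding per cell cannot be told apart. The level of a peak is given below as its rank by score in its own list, where 1 is the best score and tied scores share a mean rank. Scores were not normalized between libraries, and a given rank is a larger share of a short list than of a long one.

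Among the 10 genes, the best-ranked regions lay at the start sites of Klf11 and Klf10. The motif-bearing stretches of Klf11 are shown first because its region carried the highest BMAL1 scores of these genes. They were picked after their values were seen. They are written 5′ to 3′ on the forward strand of GRCm38, with CACGTG in capitals. The Klf11 stretches are at chr12:24651130-24651189 and chr12:24651444-24651473, upstream of the start site and in the 5′ untranslated region.
Klf11, upstream: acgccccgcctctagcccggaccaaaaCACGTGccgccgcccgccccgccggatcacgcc
Klf11, downstream: ccgcccgccgcaCACGTGcagcctccgccg

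Of the regions called in at least 4 libraries or in a single group by 2 or 3 libraries, those with a motif within 100 bp of the centre of their best peak are shown next, in the same orientation. The promoter of Klf15 held 3 E-boxes inside a region that was called in senescent libraries and in 0 control libraries (chr6:90462344-90462582). The promoter of Klf4 held 1 E-box (chr4:55532625-55532684). The other E-boxes shown lay far from the start sites, upstream of Klf6 (chr13:5714420-5714479), downstream of Klf6 (chr13:6060122-6060181), upstream of Klf13 (chr7:63986240-63986299) and downstream of Klf15 (chr6:90508234-90508293). Capitals mark CACGTG.
Klf15, promoter: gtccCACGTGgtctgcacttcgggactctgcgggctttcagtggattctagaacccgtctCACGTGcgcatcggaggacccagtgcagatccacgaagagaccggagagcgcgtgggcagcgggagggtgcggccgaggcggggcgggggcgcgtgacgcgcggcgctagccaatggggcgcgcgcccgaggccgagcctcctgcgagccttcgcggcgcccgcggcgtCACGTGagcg
Klf4, promoter: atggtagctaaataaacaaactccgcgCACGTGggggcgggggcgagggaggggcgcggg
Klf6, far upstream: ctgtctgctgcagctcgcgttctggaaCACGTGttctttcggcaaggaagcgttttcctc
Klf6, far downstream: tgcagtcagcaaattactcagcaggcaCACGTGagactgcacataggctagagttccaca
Klf13, far upstream: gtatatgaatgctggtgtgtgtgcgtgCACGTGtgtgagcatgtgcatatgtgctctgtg
Klf15, far downstream: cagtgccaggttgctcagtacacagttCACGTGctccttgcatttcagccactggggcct

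Downstream of Klf5 (chr14:99631272-99631332) and of Klf6 (chr13:6127480-6127540), regions called in control libraries and in 0 senescent libraries held the AP-1 motif instead. Capitals mark TGACTCA, the site of the Jun and Fos family of factors.
Klf5, far downstream: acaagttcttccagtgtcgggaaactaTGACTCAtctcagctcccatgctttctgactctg
Klf6, farthest downstream: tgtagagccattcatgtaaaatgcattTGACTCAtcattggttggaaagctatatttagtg

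The number of KLF peaks per library largely followed the length of the lists. Control libraries 1, 2 and 3 had 11, 17 and 45 KLF peaks, and senescent libraries 1, 2 and 3 had 14, 32 and 19. Control libraries averaged 24.3 ± 18.1 KLF peaks and senescent libraries 21.7 ± 9.29 (SD, n = 3 each), and the groups overlapped. The difference of -2.67 peaks was smaller than the spread between replicates, and it was 7.67 without control replicate 3 and 1.17 without senescent replicate 1. Per 1000 peaks of the list, control libraries had 3.94, 5.08 and 4.24 KLF peaks and senescent libraries had 3.32, 3.26 and 3.76. On that scale each control library lay above each senescent library, with means of 4.42 ± 0.591 and 3.45 ± 0.273 (SD, n = 3 each). This sum over chosen genes was not tested. Of the 10 genes, 8, 9 and 10 had a peak in control libraries 1, 2 and 3, and 8, 9 and 9 had one in senescent libraries 1, 2 and 3. Among all 21864 protein-coding genes, the share with a peak was 9.32%, 10.8% and 25.3% in control libraries and 14.4%, 26.5% and 16.6% in senescent libraries.

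**Figure D1:**
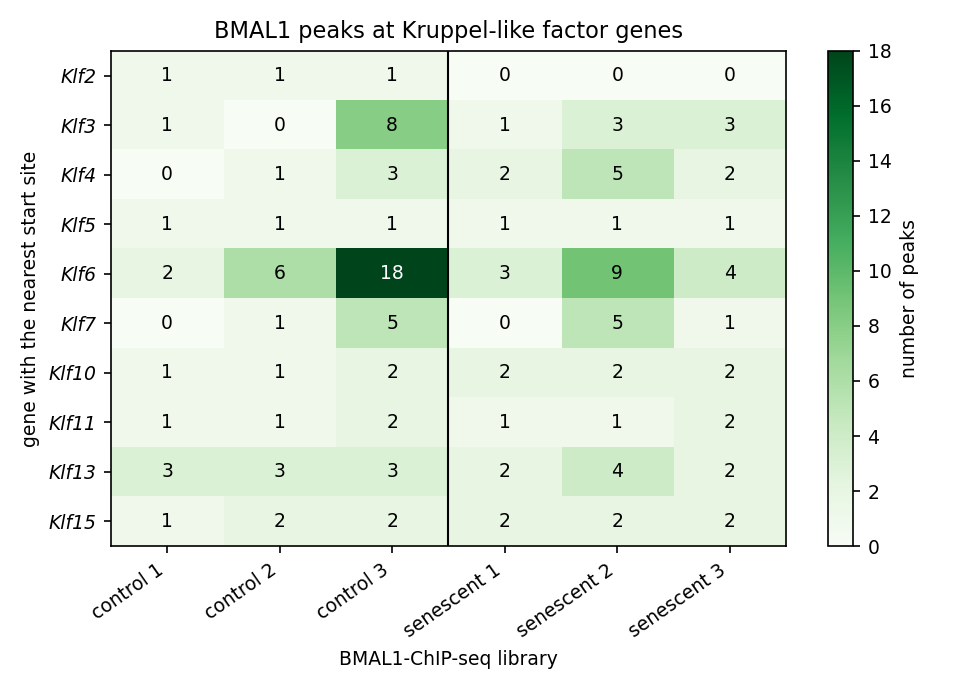
Number of BMAL1 peaks at each KLF gene (rows) in each library (columns), with darker green for more peaks. Klf6 had the most peaks, 18 of them in control replicate 3, and Klf2 had 1 peak in each control library and 0 in each senescent library.

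Klf6, Klf10, Klf11, Klf13, Klf15 and Klf5 had at least 1 peak in all 6 libraries. These are 6 of the 10 genes (60.0%), beside 5.14% of all protein-coding genes. Klf5 is among them only because a region called in 3 control libraries and another called in 3 senescent libraries count together. Klf2 was the 1 gene of the 10 (10.0%) with a peak in at least 2 control libraries and 0 senescent libraries, a pattern seen in 1.64% of all genes. The reverse, at least 2 senescent libraries and 0 control libraries, was met by 0 of the 10 genes, beside 3.42% of all genes. The stretch of genome nearest to a gene differed widely, from 50.1 kb for Klf11 and 58.1 kb for Klf2 to 969 kb for Klf6. The shares of all genes above are not matched to the KLF genes for this width. Klf6 had 20 regions, Klf3 had 10, Klf7 had 7, Klf4 had 5, Klf10 and Klf13 had 4 each, Klf15 had 3, Klf5 had 2, and Klf2 and Klf11 had 1 each. Klf6 had the most regions and the widest surroundings, but the other genes did not all follow that order. Klf4 with 695 kb had 5 regions and Klf5 with 525 kb had 2, whereas Klf3 with 356 kb had 10.

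By region, the shares lay close to those of the whole data set. Of the 57 regions, 5 (8.77%) were called in all 6 libraries, beside 6.58% of all regions. A region with calls in 2 or 3 libraries of a single group is named here after that group. Of these, 3 were senescent-only (5.26%), beside 9.44% of all regions, and 4 were control-only (7.02%), beside 5.86% of all regions. Another 29 (50.9%) were called in 1 library, beside 55.7% of all regions, and 20 of these 29 came from control replicate 3, the longest list. Single libraries decided some of these counts. Leaving out control replicate 3 gave 5 senescent-only and 2 control-only KLF regions, and leaving out control replicate 2 gave 2 control-only KLF regions. The shares of all regions were not counted in these runs.

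**Figure D2:**
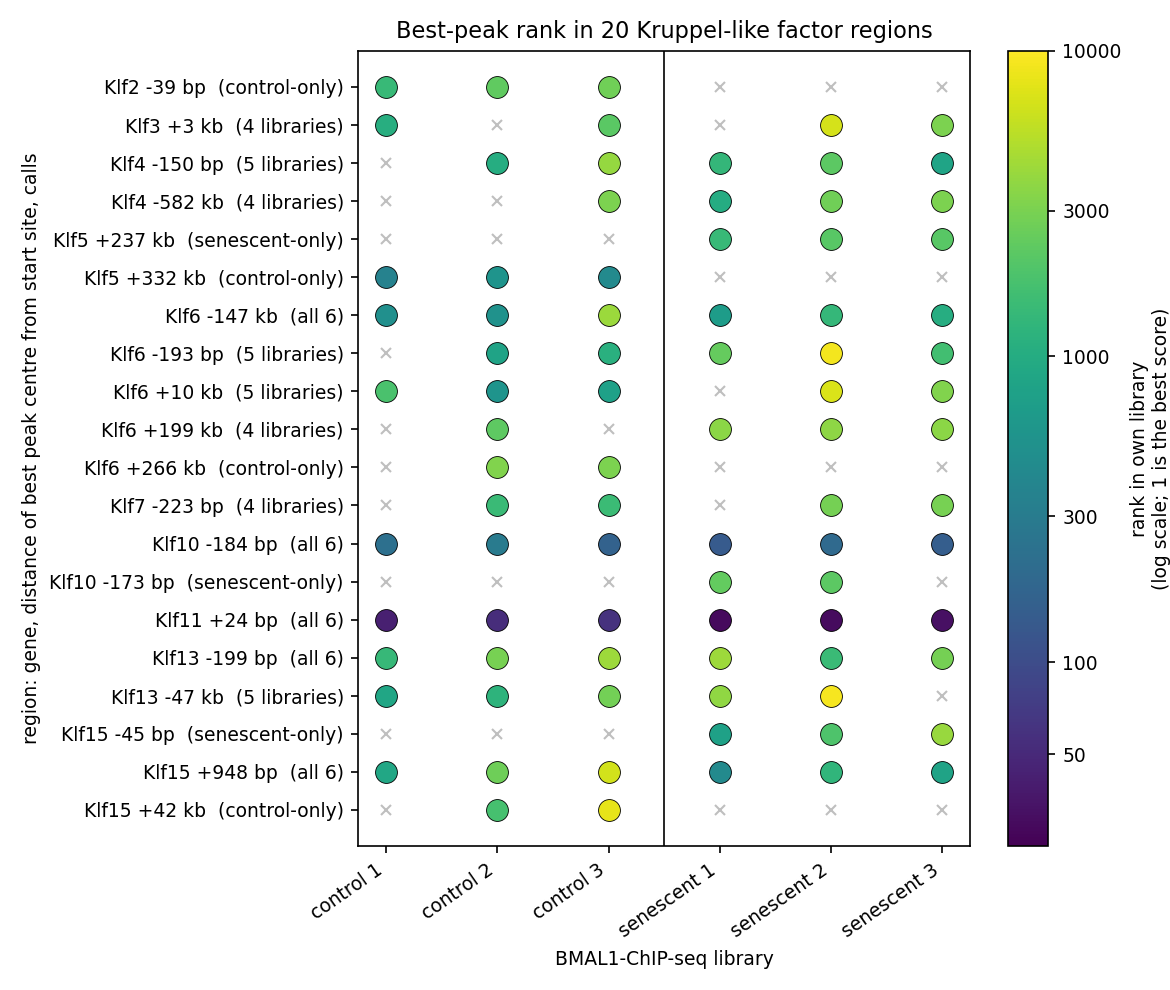
Rank of the best peak of 20 KLF regions (rows) in each library (columns), on a log colour scale where dark is the best rank and a cross marks a peak that was not called. The Klf11 and Klf10 regions at their start sites are dark in all 6 libraries, and the control-only and senescent-only regions are crossed out across one group.

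Among the members that recruit Sin3a, Klf11 (also known as TIEG2) had the best-ranked region of the family. It spanned chr12:24650609-24651958, and its best peak was centred 24 bp downstream of the start site, in the 5′ untranslated region. It ranked 42, 54 and 59 in control libraries 1, 2 and 3, and 29, 30 and 32 in senescent libraries 1, 2 and 3. Each senescent library thus ranked it better than each control library. Control libraries had a mean rank of 51.7 ± 8.74 and senescent libraries of 30.3 ± 1.53 (SD, n = 3 each), a difference of -21.3. The exact two-sided permutation test gave p = 0.1, the smallest that 3 libraries against 3 allow, and the Benjamini-Hochberg adjusted p was 0.278 over the 1106 regions called in all 6 libraries. As a percent of the length of the list, the groups overlapped, at 1.5%, 1.61% and 0.557% in control and 0.687%, 0.306% and 0.633% in senescent libraries (exact permutation p = 0.3, adjusted p = 0.677). The E-boxes shown above began 117 bp upstream and 182 bp downstream of the start site. They lay 139 and 160 bp from the centre of the best peak, so the region does not count among those with an E-box within 100 bp.

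Klf10 (also known as TIEG1), an early target of TGF-beta signalling, had the next best region among the 10 genes. It spanned chr15:38298846-38299605, with its best peak 184 bp upstream of the nearer of its 2 start sites. It ranked 220.5, 298 and 159.5 in control libraries 1, 2 and 3, and 135, 194 and 145 in senescent libraries 1, 2 and 3. The groups overlapped, with means of 226 ± 69.4 and 158 ± 31.6 (SD, n = 3 each, exact two-sided permutation p = 0.2, adjusted p = 0.401). It lay in an intron of the longer transcript and held 0 copies of CACGTG. A separate region at the other start site (chr15:38300665-38301093, best peak 173 bp upstream) was senescent-only. It ranked 2378.5 and 2186 in senescent libraries 1 and 2 and was not called in the other 4 libraries. It rests on 2 libraries, and leaving out either one ends the call. It held an E-box 194 bp from the centre of its best peak, from 370 to 365 bp upstream of the start site.

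Klf13, the remaining Sin3a-recruiting member, was called in all 6 libraries at its promoter (chr7:63938866-63939542, best peak 199 bp upstream). It ranked 1380, 2917.5 and 4143.5 in control libraries 1, 2 and 3, and 4146, 1459 and 2856 in senescent libraries 1, 2 and 3. The means of 2814 ± 1385 and 2820 ± 1344 (SD, n = 3 each) differed by less than the spread between libraries (exact permutation p = 0.9, adjusted p = 0.963). This promoter held CCCGCCC, the GC box of KLF and Sp factors, in 3 places and 0 copies of CACGTG. A region 47.4 kb upstream (chr7:63986128-63986748) held the E-box shown above. It ranked 865.5, 1203 and 2823 in control libraries 1, 2 and 3, and 3705.5 and 9255 in senescent libraries 1 and 2, and was not called in senescent library 3. Each control library ranked it better than each senescent library that had it. The share of such an order among all regions called in only some libraries was not counted. With start sites of all annotated genes, non-coding ones included, this region went to another gene.

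**Figure D3:**
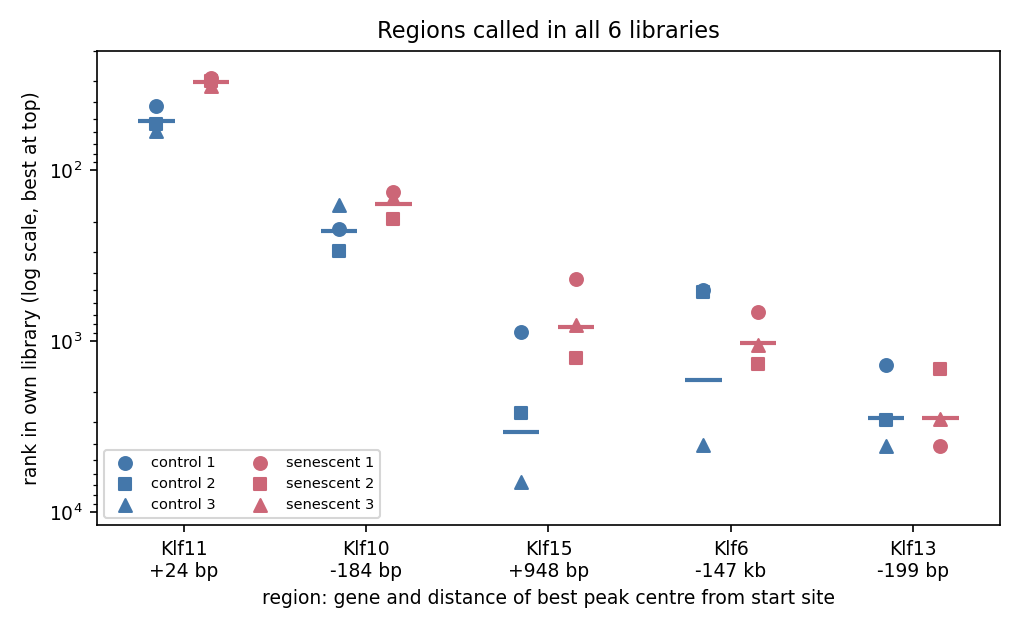
Rank of the 5 KLF regions called in all 6 libraries, on a log axis with the best rank at the top, with a point for each library and a bar for the group mean (n = 3). The 3 senescent points of Klf11 lie above its 3 control points, and the groups overlap in rank at the other 4 regions.

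Klf15, a glucocorticoid-induced factor known for control of amino acid and glucose metabolism, had 3 regions of 3 kinds. The region at its start site (chr6:90462327-90462699, best peak 45 bp upstream) was senescent-only. It ranked 772.5, 1859 and 3934 in senescent libraries 1, 2 and 3 and was called in 0 of 3 control libraries. Its E-boxes began 228, 172 and 3 bp upstream of the start site, and the last of them spanned the start site. With the lower-scoring part of each list left out, up to its median, it was called in 2 senescent libraries.

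The second Klf15 region lay inside the gene, with the best peak 948 bp downstream of a start site and in an intron (chr6:90463385-90464113), and was called in all 6 libraries. It ranked 890, 2636.5 and 6714.5 in control libraries 1, 2 and 3, and 433.5, 1252.5 and 803 in senescent libraries 1, 2 and 3. By rank the groups overlapped, since control library 1 was better than senescent library 2 (exact two-sided permutation p = 0.2, adjusted p = 0.401). As a percent of the list, control libraries stood at 31.9%, 78.7% and 63.3% and senescent libraries at 10.3%, 12.8% and 15.9%, with no overlap. The means of 58.0 ± 23.9% and 13.0 ± 2.82% (SD, n = 3 each) differed by -45.0 percentage points (exact permutation p = 0.1, adjusted p = 0.567). It held an E-box 142 bp from the centre of its best peak. The third region, 42 kb downstream (chr6:90508259-90508528), was control-only. It ranked 1704 in control library 2 and 7990 in control library 3, leaving out either one ends the call, and this region too went to another gene with start sites of all genes.

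Of the 5 KLF regions called in all 6 libraries, 1 by rank (Klf11) and 1 by percent of the list (Klf15) had groups that did not overlap, both with the senescent libraries better. Among all 1106 such regions, 17.6% had senescent libraries better by rank and 18.4% had control libraries better. By percent of the list these shares were 12.9% and 4.70%. With every library left out in turn, the number by rank ranged from 1 to 3 of the KLF regions. It was 3 without control replicate 1, control replicate 3 or senescent replicate 2, and 2 without senescent replicate 1 or senescent replicate 3. In these runs 5 to 7 KLF regions were called in all libraries left. Groups of 2 against 3 libraries separate more readily than 3 against 3, and the share of all regions was not counted there. The smallest adjusted p of the exact permutation test over all 1106 regions was 0.278 by rank and 0.567 by percent of the list. With 3 libraries against 3 the smallest p this test can give is 0.1. No region could therefore pass a threshold of 0.05, before or after adjustment, whatever its ranks.

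Among the mainly activating members, Klf2, a factor of quiescence in endothelial cells and lymphocytes, had its single region at the promoter (chr8:72318825-72319126, best peak 39 bp upstream of the start site). It was control-only, at ranks 1401, 2341 and 2737.5 in control libraries 1, 2 and 3, and was called in 0 of 3 senescent libraries. With the lower-scoring part of each list left out, it was called in 1 control library. It held CCCGCCC in 2 places upstream of the start site, and 0 copies of CACGTG.

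Klf4, a growth-arrest factor that is also used in reprogramming, had a promoter region called in 5 libraries (chr4:55532500-55533095, best peak 150 bp upstream). It ranked 1027 and 3861 in control libraries 2 and 3, and 1305.5, 2186 and 821 in senescent libraries 1, 2 and 3, so the groups overlapped. Its E-box lay from 191 to 186 bp upstream of the start site and 38 bp from the centre of the best peak. A region 582 kb upstream (chr4:56113789-56114193) ranked 3037 in control library 3 and 988, 2742.5 and 3090 in senescent libraries 1, 2 and 3, and went to another gene with start sites of all genes.

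Klf5, a factor associated with proliferation, had 0 promoter regions and 2 far downstream regions with opposite calls. The nearer one, 237 kb downstream (chr14:99535784-99536172), was senescent-only at ranks 1414.5, 2116 and 2098.5 in senescent libraries 1, 2 and 3. The farther one, 332 kb downstream (chr14:99631067-99631583), was control-only at ranks 355.5, 561.5 and 425 in control libraries 1, 2 and 3, the best ranks of the 7 control-only and senescent-only regions. The nearer region held 0 copies of the E-box, AP-1 or CACGTT motif, whereas the farther held the AP-1 motif shown above and CACGTT within 12 bp of its best peak centre. Both were intergenic, and neither was assigned to Klf5 when start sites of all annotated genes were used or when assignment was limited to 100 kb.

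Klf6, an early-response gene in fibroblasts and liver stellate cells, had the most regions. A region 147 kb upstream (chr13:5714046-5714836) was called in all 6 libraries. It ranked 500, 517.5 and 4058.5 in control libraries 1, 2 and 3, and 677, 1359 and 1057 in senescent libraries 1, 2 and 3 (exact two-sided permutation p = 1.00, adjusted p = 1.00). Control libraries 1 and 2 were better than each senescent library and control library 3 was worse, so the mean difference of -661 became 522 without control replicate 3. The E-box of this region lay 28 bp from the centre of its best peak. It went to another gene with start sites of all genes.

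The promoter region of Klf6 (chr13:5861110-5861569, best peak 193 bp upstream) was called in 5 libraries. It held an E-box 159 bp from the centre of its best peak, from 36 to 31 bp upstream of the start site. It ranked 799.5 and 1130.5 in control libraries 2 and 3, and 2417, 9016 and 1615 in senescent libraries 1, 2 and 3. A region just past the gene, 10.2 kb downstream of the start site (chr13:5871446-5872021), ranked 1771.5, 552 and 761.5 in control libraries 1, 2 and 3, and 7125 and 3208 in senescent libraries 2 and 3. At both regions each control library that had the peak ranked it better than each senescent library that had it. How often regions called in only some libraries have such an order was not counted, so it is not read as a group difference. Farther downstream, the region at 199 kb (chr13:6059795-6060207) ranked 2266 in control library 2 and 3523.5, 3585.5 and 3539.5 in senescent libraries 1, 2 and 3. The region at 266 kb (chr13:6127250-6127629) was control-only, at ranks 3217 and 3037 in control libraries 2 and 3, and leaving out either one ends the call. Both of these downstream regions went to other genes with start sites of all genes.

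Klf7, a widely expressed member studied mainly in neurons, had a promoter region called in 4 libraries (chr1:64121596-64121901, best peak 223 bp upstream). It ranked 1438 and 1472.5 in control libraries 2 and 3, and 2830 and 2935 in senescent libraries 2 and 3. Klf3, which represses through CtBP, had a region in an intron, 2947 bp downstream of a start site (chr5:64806109-64806570). It ranked 1067.5 and 2181 in control libraries 1 and 3, and 6874.5 and 3090 in senescent libraries 2 and 3. Both regions had better ranks in the control libraries that had them, and neither was called in all libraries of a group. The share of all regions called in only some libraries with that order was again not counted. By percent of the list the Klf7 region overlapped, at 42.9% and 13.9% in control and 28.9% and 58.1% in senescent libraries, and the Klf3 region did not. With start sites of all genes the Klf3 region went to another gene.

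The 20 regions described so far left 37 others. Of these, 29 were called in 1 library and 8 in 2 or 3 libraries of both groups. Their best ranks ran from 1929 to 10161.5, with a median of 5598.5, well behind the promoter regions of Klf10 and Klf11. Over all 57 regions the centre of the best peak was intergenic in 37, in an intron in 17 and in an untranslated region in 3, with 0 in coding sequence. A centre within 1000 bp of a start site, taken as a promoter, was found in 17 of 57 regions (29.8%, 95% Wilson interval 19.5 to 42.7%), beside 33.9% of all regions.

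**Figure D4:**
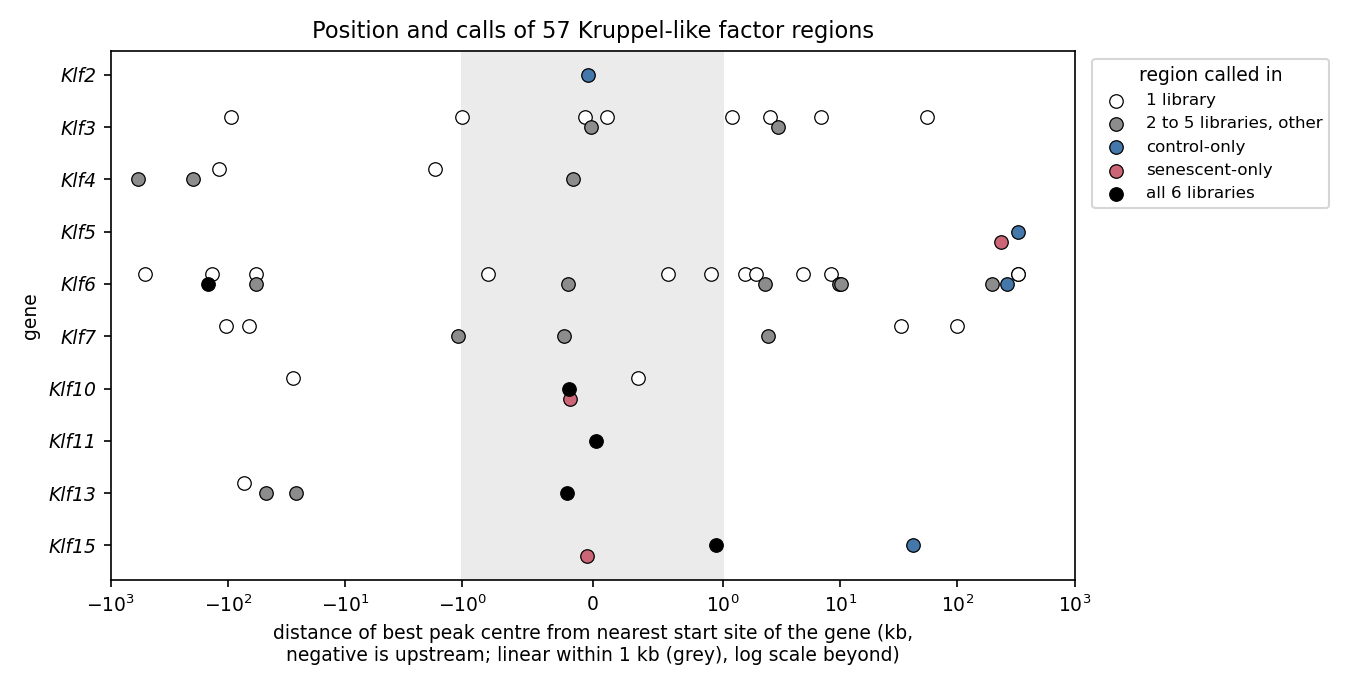
Distance of the best peak centre of each of the 57 KLF regions from the nearest start site of its gene, in kb, linear within 1 kb (grey band) and on a log scale beyond, coloured by the libraries that called it (single-library and senescent-only points are shifted up and down to stay visible). The all-library regions lie within 1 kb of a start site except the Klf6 region 147 kb upstream, and both Klf5 regions lie far downstream.

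Motifs were searched as exact letters on both strands within 100 bp of the centre of the best peak of each region. The E-box CACGTG was found in 11 of 57 KLF regions (19.3%, 95% Wilson interval 11.1 to 31.3%), beside 17.0% of all regions. Windows of the same length placed 2000 bp to each side held it in 3.51% at KLF regions and 2.66% at all regions. The AP-1 motif, TGACTCA or TGAGTCA, was found in 12 of 57 regions (21.1%, 12.5 to 33.3%), beside 16.6% of all regions and 3.51% of the KLF windows to each side. Over all 57 regions both shares thus lay above the surroundings and within counting error of all regions. Away from promoters the E-box stood at 22.5% against 1.25% of windows and AP-1 at 30.0% against 3.75%. At KLF promoter regions the E-box stood at 11.8% (Wilson interval 3.29 to 34.3%) against 8.82% of windows (3.05 to 23.0%). These intervals are too wide to tell whether an excess is present there. Among promoter regions of the whole data set the E-box stood at 19.9% against 2.43% of windows. An E-box farther than 100 bp from the centre, as in the Klf11 region, is not counted in these shares. AP-1 stood at 0% of KLF promoter regions against 2.94% of windows. Regions are not replicates, and these intervals cover counting error only.

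The motifs were also counted by position. At the 17 promoter regions the AP-1 motif was found in 0 (upper bound of the Wilson interval 18.4%), beside 4.67% of all promoter regions, and all 12 KLF regions that held it were among the 40 elsewhere (30.0%, 18.1 to 45.4%), beside 22.7% of all such regions. Farther from the peak centre, the promoter region of Klf10 called in all 6 libraries held an AP-1 motif 186 bp from it, at the start site, and the promoter region of Klf4 held one 383 bp from it. The E-box was found in 2 of 17 promoter regions (11.8%, 3.29 to 34.3%), those of Klf4 and Klf15, beside 19.9% of all promoter regions. It was found in 9 of 40 regions elsewhere (22.5%, 12.3 to 37.5%), beside 15.6%. Both motifs together were found in 1 region. With start sites of all genes, under which the far regions went to other genes, the AP-1 share of the KLF regions left was 6.45%. The AP-1 share of all regions was not counted under that setting. The KLF and Sp factor box CCCGCCC was found in 7 of 17 promoter regions (41.2%, 21.6 to 64.0%), beside 36.7% of all promoter regions, and in 1 of 40 elsewhere (2.5%), beside 4.73%. Each of these intervals contained the share of all regions. Of the remaining patterns, CACGTT was found in 3 regions (5.26%, beside 6.12% of all regions), ACANNNTGT, the inner core of the glucocorticoid response element, in 5 (8.77%, beside 5.39%) and the CACCC box CACACCC in 4 (7.02%, beside 6.34%).

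**Figure D5:**
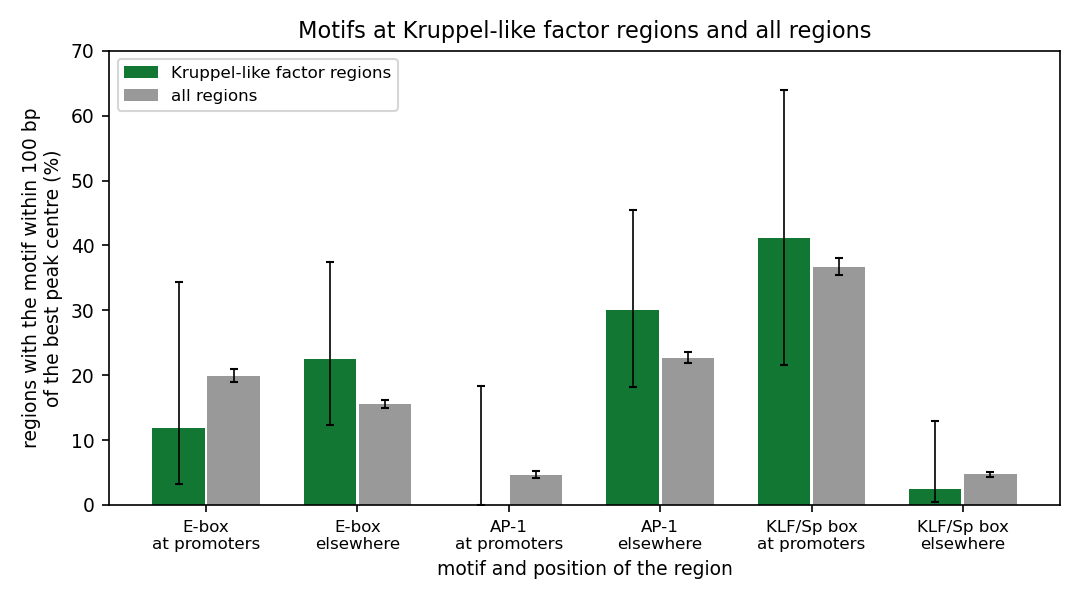
Percent of regions with a motif within 100 bp of the best peak centre, for KLF regions (green) and all regions (grey), split into promoter regions and regions elsewhere, with 95% Wilson intervals. Within this distance the AP-1 motif is at 0 in KLF promoter regions and at 30.0% elsewhere, and each KLF interval contains the grey share beside it.

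The promoters were also searched apart from the peaks, in the RefSeq promoter sequences of GRCm38 from 250 bases before to 50 after the start of a gene. Of the 10 genes 8 matched, all but Klf5 and Klf10. CACGTG was found in 4 of the 8 (Klf4, Klf6, Klf11 and Klf15), beside 8.09% of 27025 genes. All 8, with the E-box or without it, had a promoter region with a peak in at least 3 libraries. CCCGCCC was found in 6 of the 8 (Klf2, Klf3, Klf4, Klf11, Klf13 and Klf15), beside 27.9% of genes. Of the 8, 0 held the AP-1 motif, beside 5.95% of genes. The same held for CACGTT (5.44% of genes), for the CACCC box (9.05%) and for the glucocorticoid response core (7.90%). A match is a match of letters and not a shown binding site.

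The remaining KLF genes, Klf1, Klf8, Klf9, Klf12, Klf14, Klf16 and Klf17, were read alongside. Klf9 and Klf16 (2 of 7) had a peak in all 6 libraries, beside 5.14% of all protein-coding genes. Klf12 was control-only, beside 1.64% of all genes, Klf14 had a peak in 5 libraries, and Klf1, Klf8 and Klf17 had none. Klf9, a glucocorticoid-induced repressor, had 4 regions called in all 6 libraries and Klf16 had 1. The Klf16 region 734 bp upstream ranked 240.5, 181.5 and 235 in control and 50, 66.5 and 68 in senescent libraries. The Klf9 region 5423 bp upstream ranked 96, 108 and 98.5 in control and 859, 759 and 606.5 in senescent libraries. Neither of these regions overlapped between groups, by rank or by percent of the list (exact two-sided permutation p = 0.1 and adjusted p = 0.278 for each by rank, n = 3 per group). The other Klf9 regions did not share that order. The one 172 bp upstream ranked 1398, 465.5 and 4417 in control and 423, 482 and 593 in senescent libraries, and the one 1728 bp downstream ranked 1254.5, 2917.5 and 3935.5 in control and 1084.5, 1728.5 and 1092 in senescent libraries. Both overlapped by rank, and by percent of the list the senescent libraries were better without overlap. The region 4645 bp upstream overlapped on both scales. Of all 1106 regions called in all 6 libraries, 17.6% had senescent libraries better by rank without overlap and 18.4% had control libraries better. By percent of the list these shares were 12.9% and 4.70%.

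Of the related Sp factors, 1 of 9 genes had a peak in all 6 libraries (Sp3), beside 5.14% of all protein-coding genes. In this list 1 gene was control-only (Sp4), beside 1.64% of all genes, 3 had other patterns and 4 had none. The cofactors and turnover factors of KLF proteins gave 1 of 9 in all 6 libraries, the corepressor Sin3a, beside the same 5.14% of all genes. Of the rest, 5 had other patterns and 3 had none, among them Ctbp1. Sin3a had a region 298 bp upstream at ranks 2591.5, 949.5 and 2058 in control and 2663.5, 1859 and 1746.5 in senescent libraries, which overlapped.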

How the data were processed

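Chromatin of control and senescent primary MAFs was precipitated with an antibody against BMAL1 (n = 3 libraries each), and 6 input libraries were not analysed here. Nothing says whether replicates came from separate cultures or animals, so p-values measure the spread between these libraries. The authors mapped reads to mm10 with the Burrows-Wheeler Aligner, removed duplicates with Picard and called peaks with MACS2, library by library, within HiChIP (FDR at most 1%). The MACS2 version and the use of input as its control are not given in the sources used here. The unit of the deposited peak score was taken to be −log10 of the q-value, inferred from its lowest values of 2.02 to 2.12.

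Peaks were assigned to the nearest protein-coding start site and merged into regions in Python 3.11.15 (NumPy 2.4.6, SciPy 1.17.1, pysam 0.24.0, matplotlib 3.10.9). Ranks at the 1106 regions called in all 6 libraries were compared with exact two-sided permutation tests over all 20 arrangements, adjusted by Benjamini-Hochberg. All 10 genes are named. Regions called in at least 4 libraries, or in at least 2 of 3 of one group and 0 of the other, were described in full, and stretches around the nearest E-box or AP-1 motif were printed for those with one within 100 bp of the best peak centre. A sequence at Klf10 is not reported here. The members, lists and tests were chosen with earlier results of these data known. Scripts were tested on simulated lists. Alternatives were the peaks above the median score, an equal number of best peaks (2794), an overlap of 50% of the shorter peak, start sites of all genes, a limit of 100 kb, 3 of 3 libraries, other motif and promoter distances, ranks as percent of the list, the replicate number as a block and each library left out.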

Additional observations from a re-analysis of the deposited data

How the results depend on the processing

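The 5 regions called in all 6 libraries became 3 with peaks above the median score and 2 with an equal number of best peaks, among them Klf10 and Klf11. Control-only regions fell from 4 to 1 with start sites of all genes, 2 within 100 kb and 2 when 3 of 3 libraries were required, and were 6 with an equal number of best peaks, where senescent-only regions were 4 instead of 3. Leaving out 1 library gave 2 to 5 control-only and 2 to 5 senescent-only regions, and 5 to 7 regions in all libraries left. It also gave 1 to 3 KLF regions of separate rank. All these counts are of KLF regions, and the share of all regions was not counted under any of these settings. Such changes are therefore not read as particular to the KLF regions. The E-box share of 19.3% was 32.0% with equal numbers and 10.5% within 50 bp. The AP-1 share of 21.1% was 8.0% with equal numbers, 6.45% with start sites of all genes, 9.30% within 100 kb and 12.3% within 50 bp. The promoter share of 29.8% was 54.8% with start sites of all genes and 47.4% within 3000 bp. The motif and promoter shares of all regions were not counted under these settings either, and the cause was not tested. The rank difference at Klf13 (6.67) ranged from -710 to 687 with a library left out (-656 and -11.2 without senescent replicates 1 and 3) and was -1.98 points by percent of the list. That at Klf6 (-661) ranged from -1257 to 522, the latter without control replicate 3. Another 139 values were classed as unchanged, by a criterion that differed between kinds of result. Mean differences in this class kept their direction or stayed within the spread between libraries. Motif and promoter shares in it stayed within the Wilson interval of the main share. Counts of regions in it could still shift. Examples are 5 regions in all libraries becoming 7 without control replicate 1, and 3 senescent-only regions becoming 4 with an equal number of best peaks.

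Same-numbered libraries did not deviate together (correlations 0.075, -0.051 and -0.018). With the replicate number as a block, the mean differences (-2.67 KLF peaks and -21.3 ranks at Klf11) are the same by arithmetic, so they test nothing. At Klf11 the exact sign-flip test gave p = 0.25, the smallest 3 pairs allow. Depth is unknown, so peaks not called in the shorter lists cannot be read as absent.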
